A study of Mus musculus with 16 samples.

Results

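Cytochrome P450 genes encode haem enzymes that insert oxygen into drugs, plant toxins, fatty acids, steroids, bile acids and retinoids. The liver carries more P450 protein than any other organ, most of it in hepatocytes around the central vein. Members of the CYP1, CYP2 and CYP3 families handle mainly foreign compounds, CYP4 enzymes hydroxylate fatty acids, and CYP7, CYP8, CYP17, CYP26, CYP27 and CYP39 enzymes act on sterols, bile acids, steroids and vitamin A.

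The genes were taken by name from a liver RNA-seq table. A row was a candidate when its symbol began with Cyp and a number of these families, followed by a letter and a number, which 70 rows did. Of these, 64 reached a normalised read count of 10 in at least 4 of 16 libraries and are the members described here, among 15781 genes that passed the same filter. The CYP2 family gave 33 members, CYP4 gave 13, CYP3 gave 7, CYP1 gave 3, CYP7 and CYP26 gave 2 each, and CYP8, CYP17, CYP27 and CYP39 gave 1 each. The 6 candidates under the filter were Cyp2b9, Cyp2b13, Cyp2d11, Cyp2j13, Cyp3a57 and Cyp4f39.

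The libraries came from livers of mice 20 days old, labelled as males, with 4 libraries in each of 4 genotypes that all carry 2 floxed alleles of Trsp. Trsp is the gene of the selenocysteine tRNA, without which selenoproteins are not made. The genotypes are Trspfl/fl (called control below), Trspfl/fl::AlbCre (Trsp knockout), Keap1C226SC613Shomo::Trspfl/fl (Keap1 mutant) and Keap1C226SC613Shomo::Trspfl/fl::AlbCre (compound mutant). The AlbCre transgene is driven by the albumin promoter and serves to delete Trsp in hepatocytes. How complete the deletion was, and how far other liver cells kept the gene, was not measured here. The Keap1 mutant mice are homozygous for serine in place of 2 cysteines with which KEAP1, the repressor of the transcription factor NRF2, senses oxidants. This allele is present in every cell from conception, and no strain is given in the sources used here. The design asked which responses to selenoprotein loss need these cysteines, so each genotype was compared with its partner for Trsp and with its partner for Keap1. The labels number the libraries of a genotype without saying that each is a separate animal, so p-values measure the spread between these libraries.

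Recovered reads per library ranged from 11386669 to 19164133 with a median of 15509625. Gpx1, a selenoprotein mRNA, lay between 13.09 and 14.20 on the log2 scale in the libraries without AlbCre and between 11.43 and 11.99 in those with it. The library labelled compound mutant replicate 1 stood apart from its male label: its Xist value was 14.71, against 4.59 to 5.81 in the other 15 libraries, and the Y-linked genes Ddx3y, Eif2s3y and Uty were at the lowest value of the table, 2. It also held the lowest albumin value, 19.23 against 19.74 to 20.68 elsewhere. This library had the lowest value of all 16 for 32 of the 64 P450 genes (50%), against 11.3% of all genes tested. The totals over members and some single genes are therefore also given without it. Compound mutant values of subfamilies, of chromosome 19, of gene lists and of the remaining genes include it.

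The 64 P450 genes together took from 0.744% to 3.06% of all recovered reads. The median share was 1.797% in control, 2.31% in Trsp knockout, 1.94% in Keap1 mutant and 1.33% in compound mutant livers. The lowest share was that of compound mutant replicate 1, and without it the other 3 compound mutant libraries held 1.13%, 1.54% and 1.73%. From these shares of whole liver RNA alone, fewer hepatocytes and less P450 RNA per hepatocyte cannot be told apart.

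To compare genes with each other, normalised counts were divided by the length of the longest coding transcript, which 63 members had in the reference. Cyp2e1, which oxidises ethanol and acetone, had the highest length-scaled level in every genotype, with a median of 43678 normalised counts per kb in control livers. That was 30.1% of the sum over members in control, 23.5% in Trsp knockout, 34.2% in Keap1 mutant and 34.3% in compound mutant livers. Cyp3a11, a broad drug oxidase, came next in control livers with 13673 per kb, followed by Cyp2c29 with 9888, Cyp2c70 with 8917 and Cyp2c50 with 7370. The control ranges of the neighbours Cyp3a11 (10506 to 25426) and Cyp2c29 (9452 to 13816) overlapped, as did those of Cyp2c70 and Cyp2c50. At the other end stood Cyp2b10 with 3.82 and Cyp1a1 with 5.07 per kb, both of which are strongly inducible by foreign compounds.

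Cyp2a5, the coumarin and nicotine hydroxylase of the mouse, had a place among the abundant genes that differed by genotype. It ranked 9 of 63 in control livers with a median of 4753 per kb, 2 in Trsp knockout livers with 29183, 7 in Keap1 mutant livers with 6243 and 10 in compound mutant livers with 2034. It made up 16.6% of the length-scaled P450 sum in Trsp knockout livers and between 2.16% and 4.08% in the other genotypes. Cyp2c50 went from rank 5 in control and 6 in Trsp knockout livers to 12 in Keap1 mutant and 14 in compound mutant livers.

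**Figure D1:**
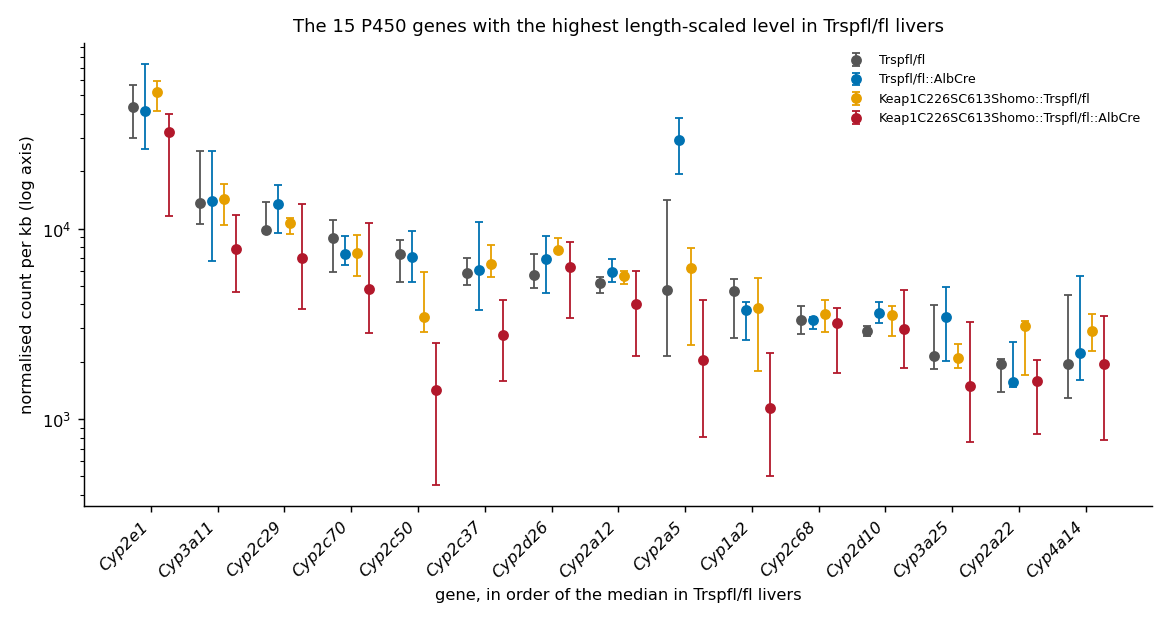
Length-scaled levels (normalised count per kb of transcript, log axis) of the 15 P450 genes with the highest control median. Points are the median of 4 libraries and bars run from the lowest to the highest library of each genotype. Cyp2a5 stands at 29183 per kb in Trsp knockout livers and at 2034 in compound mutant livers.

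The genotypes were compared by limma, and a called gene is one that differed by more than 1 on the log2 scale at an adjusted p under 0.01 over all 15781 genes. The unit is log2(normalised count + 4), a scale that shrinks the differences of genes with few reads. In compound mutant against Trsp knockout livers, 5 P450 genes were called lower and 0 higher. They were Cyp2a5, Cyp26a1, Cyp2c50, Cyp7b1 and Cyp2c39. Over all genes this comparison called 72 lower (0.456%) and 18 higher (0.114%), so that 7.81% of the P450 genes were called lower beside 0.456% of all genes. At an adjusted p under 0.05 with any fold change, 10 P450 genes were lower (15.6%) beside 1.29% of all genes. The additional 5 were Cyp1a2, Cyp26b1, Cyp2c38, Cyp2c40 and Cyp2c54.

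The direction was shared by most members. The log2 fold change of compound mutant against Trsp knockout livers was below 0 for 54 of the 64 genes, with a median of -0.69 beside 0.01 over all genes. For 15 P450 genes (23.4%) every compound mutant library lay below every Trsp knockout library, which was so for 4.08% of all genes, and for 0 P450 genes every library lay above, which was so for 4.53% of all genes. Without compound mutant replicate 1, 49 members were below 0 with a median of -0.55, 15 had groups that did not overlap (5.17% of all genes in that fit), and 4 were called (0.304% of all genes). The gene that lost its call was Cyp26a1.

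In the other comparisons the calls over P450 genes were 0, and limma called few genes at all. Trsp knockout against control livers called 0 P450 genes in either direction, beside 0.19% of all genes higher and 0.0253% lower. Keap1 mutant against control livers also called 0, beside 0.00634% of all genes higher and 0.00634% lower. Compound mutant against Keap1 mutant livers called 0, beside 0.0697% higher and 0.101% lower.

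The unadjusted tests were less even. At an unadjusted p under 0.05 there were 8 P450 genes (12.5%) in Trsp knockout against control livers, beside 11% of all genes, and 13 (20.3%) in Keap1 mutant against control livers, beside 9.07% of all genes. There were 13 in compound mutant against Keap1 mutant livers, all of them lower, beside 13.6% of all genes in either direction. In compound mutant against Trsp knockout livers there were 35 (54.7%), 33 of them lower, beside 17.6% of all genes. The median log2 fold change over members was 0.15 for the knockout in Keap1 wild type livers and -0.47 for the knockout in Keap1 mutant livers, beside -0.0147 and -0.00488 over all genes. The difference between these knockout effects, tested as an interaction, was below 0 for 55 of the 64 members with a median of -0.66. The interaction test called 0 P450 genes in either direction, beside 0.0317% of all genes higher and 0.0253% lower. Its smallest limma adjusted p among members was 0.12, for Cyp2a5, and 15 members (23.4%) had an unadjusted p under 0.05, beside 10.8% of all genes. Without compound mutant replicate 1 the median for the knockout in Keap1 mutant livers was -0.25, with 46 members below 0 in place of 52, and the interaction median was -0.43, with 51 below 0. These comparisons share libraries, so their values stand side by side and are not independent of each other.

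**Figure D2:**
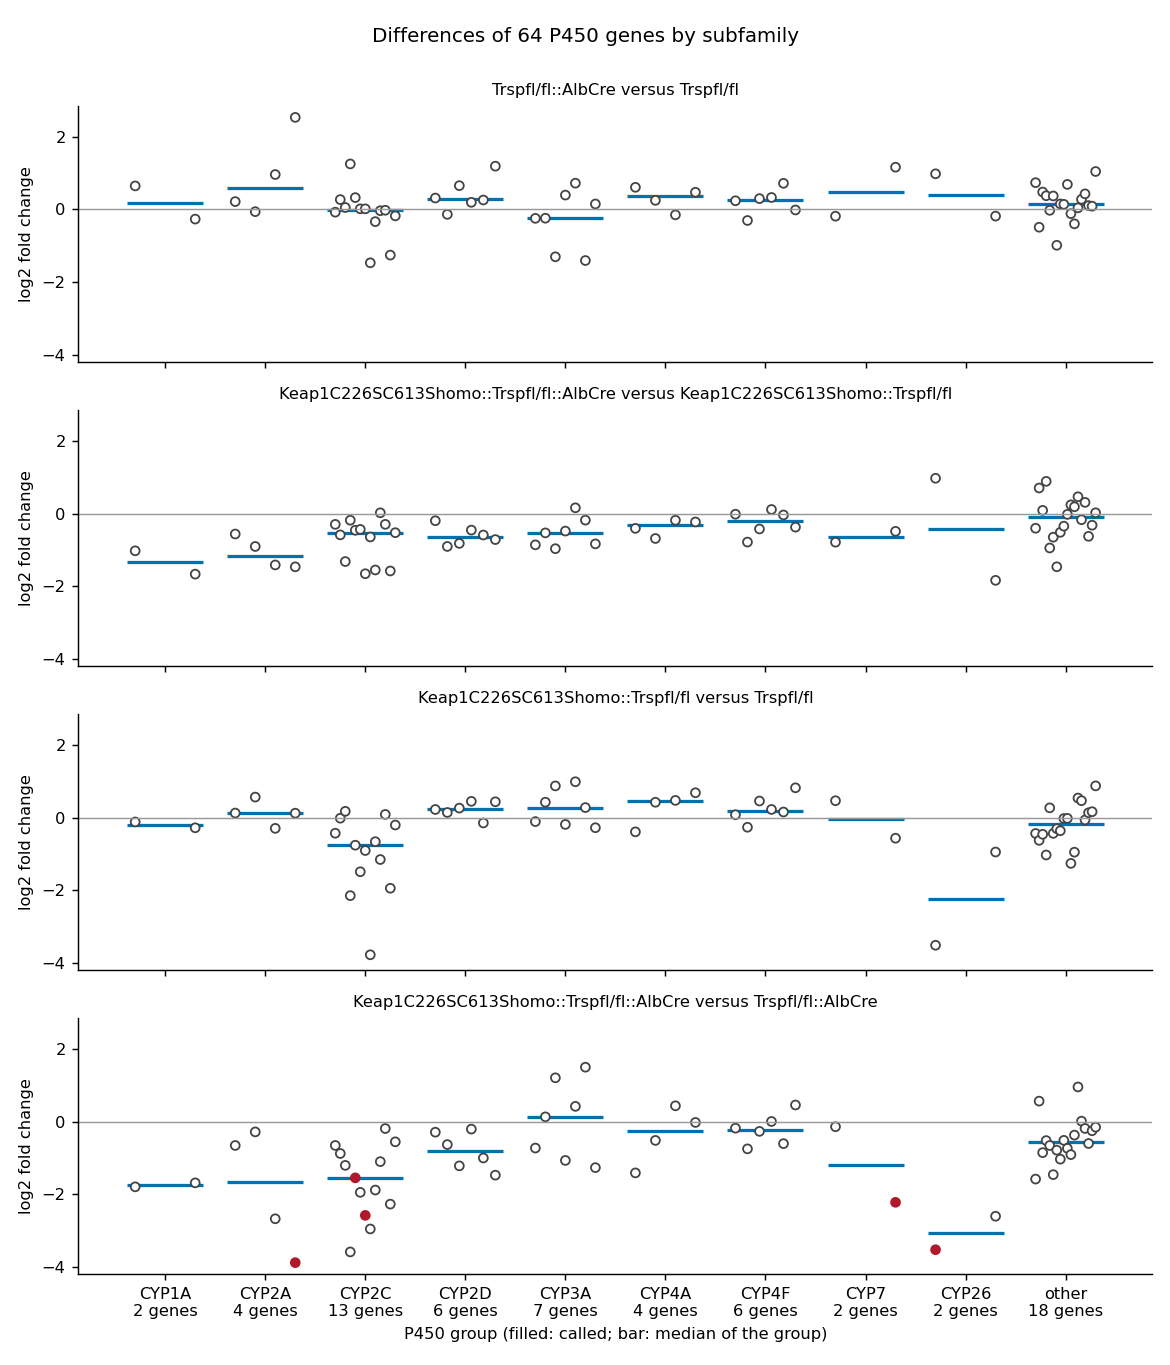
Log2 fold change (vertical axis) of each of the 64 P450 genes, grouped by subfamily along the horizontal axis, in 4 comparisons named above the panels. Each point is 1 gene, filled where it was called, and the bar is the median of its group. The 5 filled points all lie below 0 in compound mutant against Trsp knockout livers, where the median of the 13 CYP2C genes was -1.55.

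For 4 of the 5 called genes the promoter table built from RefSeq (GRCm38.p6) held a start site, and the 250 bases before it were searched on both strands for TATAAA, for GCGTG (the core bound by the dioxin receptor), for TGACNNNGC (the core of the antioxidant response element bound by NRF2) and for the retinoic acid response element with 5 bases between its repeats. The windows of Cyp26a1 and Cyp2a5 are shown because they held a match, which is in capitals: the retinoic acid response element from base -32 to -16 in Cyp26a1 (chr19:37697558-37697807, plus strand; the element reads on the opposite strand) and TATAAA from base -29 to -24 in Cyp2a5 (chr7:26835089-26835338, plus strand).
Cyp26a1: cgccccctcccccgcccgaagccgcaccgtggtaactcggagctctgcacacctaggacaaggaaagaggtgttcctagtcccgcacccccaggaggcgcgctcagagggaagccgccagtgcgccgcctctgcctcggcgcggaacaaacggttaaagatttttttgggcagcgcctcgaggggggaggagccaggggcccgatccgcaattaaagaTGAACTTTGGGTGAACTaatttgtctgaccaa
Cyp2a5: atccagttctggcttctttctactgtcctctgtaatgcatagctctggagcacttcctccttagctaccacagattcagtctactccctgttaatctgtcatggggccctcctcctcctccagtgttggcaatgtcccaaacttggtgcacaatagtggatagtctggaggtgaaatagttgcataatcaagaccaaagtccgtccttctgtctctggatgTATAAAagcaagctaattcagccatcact
The windows of Cyp2c39 and Cyp2c50 held none of these letters. Of 49 members with a window, 1 held the retinoic acid response element, beside 0.0891% of 32536 windows of all genes. TATAAA was in the window of 24 of the 49 members (49.0%) and in 12.3% of all windows, and TGACNNNGC in that of 3 members (6.12%), Cyp4f14, Cyp4f18 and Cyp8b1, and in 10.2% of all windows. GCGTG was in that of 8 members (16.3%), Cyp1a1 among them, and in 28.3% of all windows. A member counted where any of its start-site windows held the match, while the shares of all windows count each distinct window. The 2 shares are therefore not in like units. A match is a run of letters and no measured binding site.

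Cyp2a5 had the largest difference between compound mutant and Trsp knockout livers of all members. Its values, as log2(normalised count + 4) in replicates 1 to 4, were 12.08, 12.29, 13.79 and 14.80 in control livers and 16.14, 16.22, 15.26 and 15.47 in Trsp knockout livers. They were 13.95, 13.46, 13.76 and 12.26 in Keap1 mutant livers and 10.67, 12.40, 11.45 and 13.05 in compound mutant livers. Every Trsp knockout library lay above every library of the other genotypes, while the remaining 3 genotypes overlapped. Compound mutant livers were lower than Trsp knockout livers by a log2 fold change of -3.88 (standard error, SE, 0.59, limma adjusted p = 0.0022), and by -3.47 without compound mutant replicate 1 (limma adjusted p = 0.0095). The call was lost when compound mutant replicate 3 was left out. The knockout effect itself was 2.53 in Keap1 wild type livers (SE 0.59, limma adjusted p = 0.078) and -1.47 in Keap1 mutant livers (limma adjusted p = 0.29). The difference between these, -4.0 with a SE of 0.84, had a limma adjusted p of 0.12.

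Cyp2a4, a steroid hydroxylase whose coding sequence is 94.8% identical to that of Cyp2a5, had a log2 fold change of -2.67 in the same comparison (limma adjusted p = 0.063). Its Trsp knockout values were 8.71, 9.55, 11.95 and 12.87, and its compound mutant values were 7.38, 8.70, 7.35 and 8.95. The groups overlapped, and the knockout libraries that were high for Cyp2a4 were replicates 3 and 4, which were the lower pair for Cyp2a5. Cyp2a12 and Cyp2a22, 97.0% identical to each other, had differences of -0.66 and -0.28 with overlapping groups, and that of Cyp2a12 was -0.38 without compound mutant replicate 1. Reads of relatives this close were divided by the estimates of the authors' software, so the split between such genes is uncertain. Of the 64 members, 25 had a relative in their subfamily with at least 90% coding identity, and 17 had one with at least 95%.

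**Figure D3:**
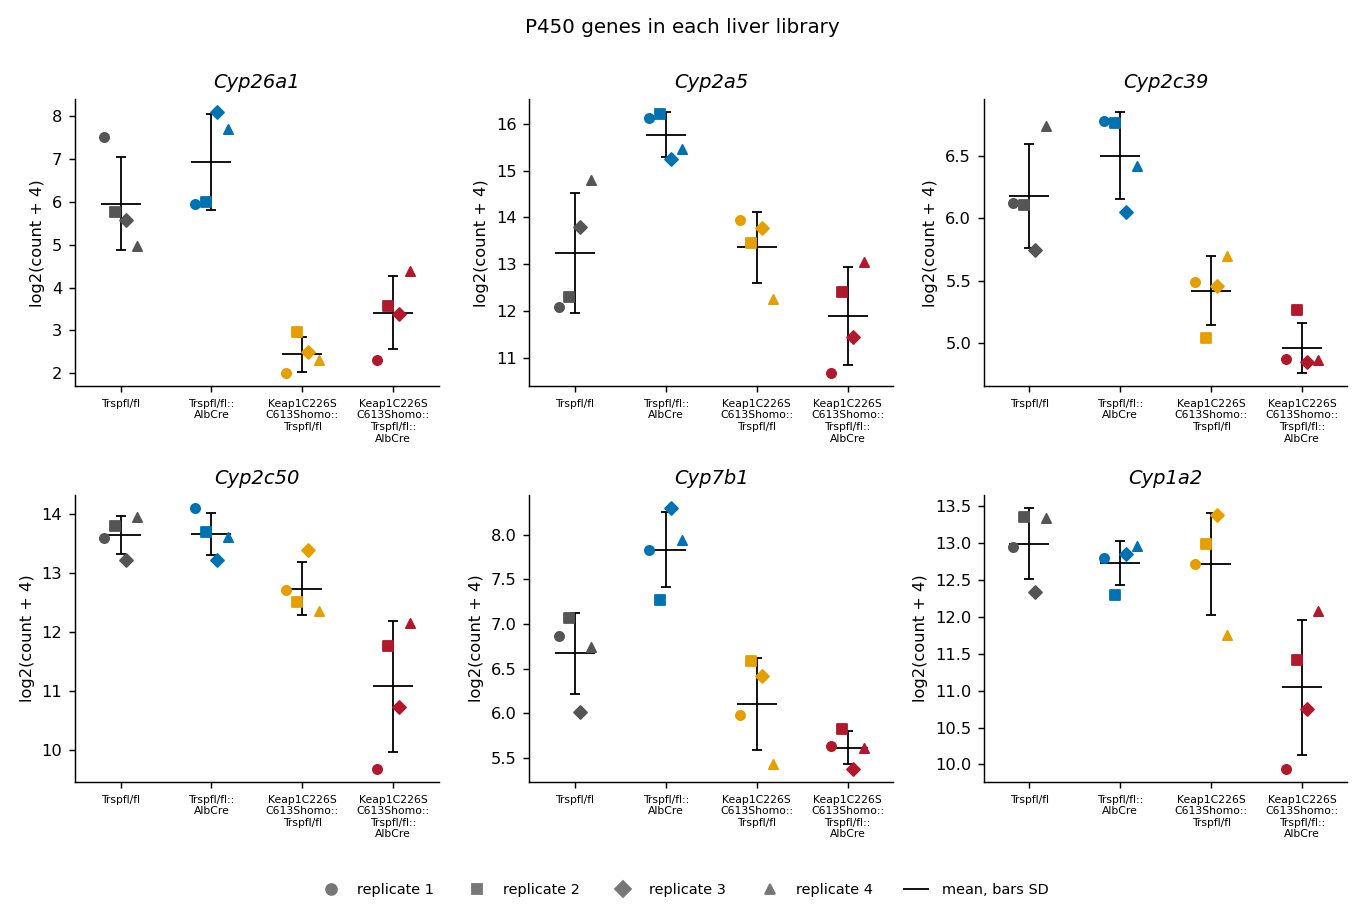
Values of 6 P450 genes in every library, on the vertical axis as log2(normalised count + 4), by genotype on the horizontal axis. Symbols are replicates, and the bar and whiskers are the mean and SD of 4 libraries. For each gene every compound mutant library lies below every Trsp knockout library.

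The CYP2C genes, which oxidise drugs and turn arachidonic acid into signalling epoxides, formed the largest subfamily and the one with the most members that were lower. All 13 were below 0 in compound mutant against Trsp knockout livers, with a range from -3.59 to -0.19 and a median of -1.55. Of these, 2 were called, 5 had an adjusted p under 0.05, and 7 had groups that did not overlap. Over all genes tested the shares on the lower side were 0.456%, 1.29% and 4.08%, in that order. In Keap1 mutant against control livers 11 of the 13 were below 0 with a median of -0.76, and in compound mutant against Keap1 mutant livers 12 were, with a median of -0.53. In Trsp knockout against control livers 7 were below 0 and 6 above, with a median of -0.02.

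Cyp2c50, which epoxidises arachidonic and linoleic acid, was the most abundant CYP2C gene that was called. Its values were 13.60, 13.80, 13.22 and 13.95 in control livers and 14.10, 13.70, 13.22 and 13.61 in Trsp knockout livers. They were 12.71, 12.50, 13.39 and 12.35 in Keap1 mutant livers and 9.68, 11.77, 10.73 and 12.15 in compound mutant livers. All compound mutant libraries lay below the 12 others, with replicate 1 lowest. Against Trsp knockout livers it was lower by a log2 fold change of -2.58 (SE 0.41, limma adjusted p = 0.0032), and -2.11 without that replicate (limma adjusted p = 0.0033). Set against Keap1 mutant livers, the value was -1.66 (limma adjusted p = 0.076). Without Trsp knockout replicate 1 the call against Trsp knockout livers was lost, as it was without Trsp knockout replicate 4 and without compound mutant replicate 3.

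Cyp2c39, a hydroxylase of retinoic acid, was expressed at a far lower read count, with group means of 27.3 to 88.8 normalised counts. Its values were 6.79, 6.77, 6.05 and 6.42 in Trsp knockout livers and 4.87, 5.26, 4.84 and 4.86 in compound mutant livers. Control livers had 6.12, 6.11, 5.75 and 6.74, and Keap1 mutant livers had 5.49, 5.03, 5.46 and 5.69. Both genotypes with the Keap1 mutation lay wholly below both without it. Compared on the log2 scale, the difference was -1.55 in compound mutant against Trsp knockout livers (SE 0.23, limma adjusted p = 0.0017) and -0.76 in Keap1 mutant against control livers (limma adjusted p = 0.30).

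Cyp2c54 had the largest difference of any member in Keap1 mutant against control livers, -3.78 on the log2 scale (SE 0.67, limma adjusted p = 0.047). Its control values were 10.97, 11.48, 10.93 and 12.24, and its Keap1 mutant values were 6.72, 6.68, 8.25 and 8.85. Trsp knockout livers had 9.78, 9.96, 9.73 and 10.27, and compound mutant livers had 5.63, 7.87, 5.47 and 8.95. The Trsp knockout libraries lay below every control library and above every library with the Keap1 mutation. In log2 fold change, Cyp2c54 had -1.47 in Trsp knockout against control livers (limma adjusted p = 0.43) and -2.95 in compound mutant against Trsp knockout livers (limma adjusted p = 0.03). The coding sequence of Cyp2c54 is 95.2% identical to that of Cyp2c50, which did not share this order of the genotypes. Both called CYP2C genes had a relative that was also lower in compound mutant against Trsp knockout livers. The nearest to Cyp2c50 was Cyp2c37 (96.1% identical), with -1.20 and overlapping groups (limma adjusted p = 0.063). For Cyp2c39 it was Cyp2c38 (94.2%), with -3.59. The split of reads within these pairs is uncertain.

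Further CYP2C genes fell short of the call. Cyp2c38 had a log2 fold change of -3.59 in compound mutant against Trsp knockout livers (limma adjusted p = 0.027), with values of 9.23, 8.90, 7.13 and 6.64 against 3.63, 3.58, 4.65 and 5.70. In control livers replicate 4 stood at 9.60 while the other 3 lay between 5.66 and 5.91. Cyp2c40 had -1.95 (limma adjusted p = 0.041) in the same comparison. Cyp2c37, an epoxygenase of the same cluster, had the smallest p of any member in compound mutant against Keap1 mutant livers. Its log2 fold change there was -1.32 (SE 0.32, limma adjusted p = 0.067), with 13.86, 13.54, 13.54 and 13.30 against 11.50, 12.91, 11.99 and 12.55 and no overlap. Cyp2c29, the third most abundant P450 gene of control livers per kb, had -0.88 against Trsp knockout livers with overlapping groups (limma adjusted p = 0.16), and -0.58 without compound mutant replicate 1.

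The CYP2C cluster and Cyp26a1 share chromosome 19, where 15 of 63 members with a reference position lie. All 15 were below 0 in compound mutant against Trsp knockout livers with a median of -1.58, and 8 had groups that did not overlap. The 48 members of other chromosomes had a median of -0.56, with 38 below 0 and 7 without overlap. In Keap1 mutant against control livers the members of chromosome 19 had a median of -0.76, with 13 of 15 below 0 and 4 without overlap, while those of other chromosomes had a median of 0.12, with 22 of 48 below 0 and 1 without overlap. The 509 other genes tested on chromosome 19 had medians of 0.00 in Keap1 mutant against control and 0.03 in compound mutant against Trsp knockout livers. Of these 509 genes, 2.36% and 3.34% lay wholly lower. Of the other genes tested on other chromosomes, 3.01% and 4% did. Within the cluster the neighbours differed, as Cyp2c68 had values close to 0 in both comparisons (0.09 and -0.19) between Cyp2c67 (-1.15 and -1.10) and Cyp2c40 (-1.49 and -1.95).

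**Figure D4:**
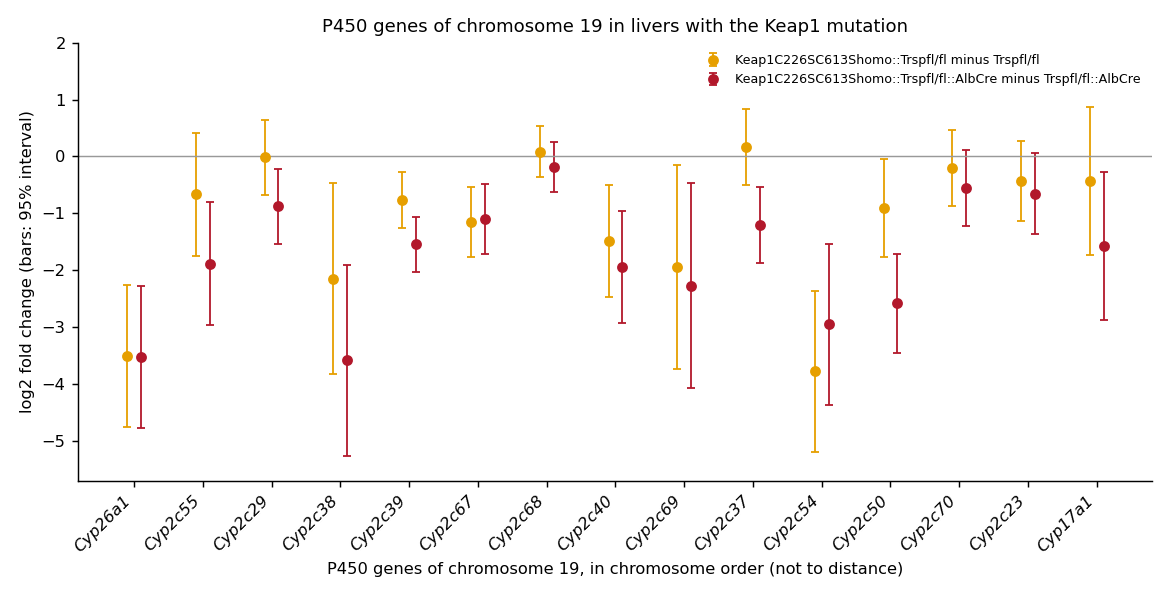
Log2 fold change, with the 95% interval of the limma fit, of the 15 P450 genes of chromosome 19 in their order along the chromosome (horizontal axis, not to distance). Colours are the comparisons of Keap1 mutant with control and of compound mutant with Trsp knockout livers. Cyp26a1 lies at -3.51 and -3.53, and Cyp2c68 at 0.09 and -0.19.

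The vitamin A enzymes of the CYP26 family, which break down retinoic acid, both had their compound mutant libraries below every Trsp knockout library. Cyp26a1, which retinoic acid itself induces, had values of 7.52, 5.76, 5.59 and 4.97 in control livers and 5.95, 6.01, 8.09 and 7.71 in Trsp knockout livers. They were 2.0, 2.97, 2.49 and 2.31 in Keap1 mutant livers, where the mean normalised count was 1.61, and 2.30, 3.58, 3.38 and 4.39 in compound mutant livers. No library with the Keap1 mutation reached the lowest library without it. The log2 fold change was -3.53 in compound mutant against Trsp knockout livers (SE 0.59, limma adjusted p = 0.0046) and -3.51 in Keap1 mutant against control livers (SE 0.59, limma adjusted p = 0.037). With so few reads the constant of 4 in the log2 values understates these differences. The knockout effect was 0.98 in Keap1 wild type and 0.97 in Keap1 mutant livers, and their difference was -0.01 with a SE of 0.83. Without compound mutant replicate 1 the comparison with Trsp knockout livers gave -3.15 (limma adjusted p = 0.02), which is no longer a call. The call was also lost without compound mutant replicate 2 or 3 and without Trsp knockout replicate 3 or 4. With control replicates 1 and 2 and compound mutant replicate 1 left out, no P450 gene kept an adjusted p under 0.05 in Keap1 mutant against control livers.

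Cyp26b1, the relative expressed also in stellate cells, had another order of genotypes. Its values were 5.66, 5.66, 5.24 and 5.67 in compound mutant livers and 8.40, 6.37, 8.89 and 9.0 in Trsp knockout livers. Keap1 mutant livers had 7.58, 7.31, 7.74 and 6.97, and control livers had 9.75, 8.76, 7.0 and 7.89. The compound mutant libraries lay below the 12 others. Its log2 fold change was -2.60 against Trsp knockout livers (limma adjusted p = 0.021) and -1.84 against Keap1 mutant livers (limma adjusted p = 0.14). The summed level of 5 stellate cell markers ranged from 10460 to 13120 normalised counts in compound mutant, from 10830 to 13050 in Trsp knockout and from 12050 to 14080 in Keap1 mutant livers.

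Among the sterol and bile acid enzymes, Cyp7b1 had the smallest adjusted p of all members. It encodes the oxysterol hydroxylase of the alternative bile acid pathway. Its values were 7.83, 7.27, 8.30 and 7.94 in Trsp knockout livers and 5.63, 5.83, 5.38 and 5.62 in compound mutant livers. Control livers had 6.86, 7.06, 6.02 and 6.74, and Keap1 mutant livers had 5.98, 6.59, 6.42 and 5.43. The Trsp knockout libraries lay above all others, and the compound mutant libraries lay below every control library. The log2 fold change was -2.22 in compound mutant against Trsp knockout livers (SE 0.28, limma adjusted p = 0.00028), with -2.23 when compound mutant replicate 1 was left out. The knockout effect was 1.16 in Keap1 wild type livers (limma adjusted p = 0.085) and -0.49 in Keap1 mutant livers (limma adjusted p = 0.47), and the interaction of -1.65 had a limma adjusted p of 0.20.

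The other bile acid enzymes gave smaller values. Cyp7a1, the rate-limiting enzyme of the classical pathway, had -0.14 in compound mutant against Trsp knockout livers (limma adjusted p = 0.90), with a 95% interval from -1.06 to 0.78. Cyp8b1, which sets cholic acid synthesis, had 1.04 in Trsp knockout against control livers (limma adjusted p = 0.28) and -0.15 in compound mutant against Trsp knockout livers. Cyp27a1, the mitochondrial sterol hydroxylase, had -0.85 (limma adjusted p = 0.088) and Cyp39a1, an oxysterol hydroxylase, had 0.01 in the latter comparison. Cyp17a1, a steroid hydroxylase that young mouse liver expresses, had -1.58 (limma adjusted p = 0.19), and its values varied within genotypes from 6.92 to 9.69 among compound mutant and from 8.83 to 11.07 among Trsp knockout livers. Cyp2r1, which makes the circulating form of vitamin D, had -1.26 in Keap1 mutant against control livers (SE 0.25, limma adjusted p = 0.084). Its values were 6.06, 6.33, 6.11 and 6.64 against 7.90, 7.70, 7.28 and 7.31, without overlap.

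The CYP1A genes, targets of the dioxin receptor AHR, were both lower without overlap in compound mutant against Trsp knockout livers. Cyp1a2, the caffeine demethylase, had 9.94, 11.42, 10.75 and 12.07 against 12.80, 12.30, 12.86 and 12.96. Control livers had 12.95, 13.36, 12.33 and 13.34, and Keap1 mutant livers had 12.72, 12.99, 13.38 and 11.76. The compound mutant replicate 1 was lowest and replicate 4 reached into the range of the Keap1 mutant livers. The log2 fold change was -1.68 (SE 0.40, limma adjusted p = 0.041), and -1.32 without replicate 1 (limma adjusted p = 0.12). Cyp1a1, at 1 to 37 reads a library, had -1.79 (limma adjusted p = 0.09). Cyp1b1 had 0.56 in the same comparison with overlapping groups.

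All 6 CYP2D genes, a subfamily of drug oxidases, were below 0 in compound mutant against Trsp knockout livers with a median of -0.82, and 5 of 6 were above 0 in Trsp knockout against control livers with a median of 0.29. Cyp2d9, a male-predominant steroid hydroxylase, had groups without overlap, with 12.73, 12.25, 11.46 and 11.91 in Trsp knockout and 9.85, 10.88, 10.51 and 11.23 in compound mutant livers. The most abundant P450 gene, Cyp2e1, had 14.39, 16.16, 15.70 and 15.98 in compound mutant and 16.73, 16.43, 16.67 and 16.21 in Keap1 mutant livers, a log2 fold change of -0.95 without overlap (limma adjusted p = 0.30). Without compound mutant replicate 1 this value was -0.56 (limma adjusted p = 0.61). Cyp2b10, the main target of the receptor CAR, stayed between 2.0 and 4.74 in all libraries and had no adjusted p under 0.45 in any comparison.

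The CYP3A genes were split in direction, and no CYP4 gene was called in any comparison. Of 7 CYP3A genes, 3 were below and 4 above 0 in compound mutant against Trsp knockout livers, with a median of 0.13. Cyp3a11 had -0.73 (limma adjusted p = 0.40), and Cyp3a16, a form of the fetal and newborn liver, had 1.21 (limma adjusted p = 0.25) with overlapping groups. The 4 CYP4A genes, targets of the fatty acid receptor PPAR alpha, had a median of -0.27, and the 6 CYP4F genes had one of -0.22. Cyp4a10 had -1.41 (limma adjusted p = 0.13) and Cyp4a14 had -0.52 (limma adjusted p = 0.58). Cyp4f17 had the third smallest p of members in Trsp knockout against control livers, with 0.72 (SE 0.21, limma adjusted p = 0.20).

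Groups without overlap were about as common among P450 genes as among all genes in Trsp knockout against control livers, where 3 members lay higher (background 3.40%) and 1 lower (background 2.62%). The 3 were Cyp2a5, Cyp7b1 and Cyp2d10, and the 1 was Cyp2c54. In compound mutant against Keap1 mutant livers 4 members lay lower (background 3.71%), Cyp26b1, Cyp2c37, Cyp2c50 and Cyp2e1, and 0 higher (background 3.97%). In Keap1 mutant against control livers 5 lay lower (background 3.04%), Cyp26a1, Cyp2c38, Cyp2c39, Cyp2c54 and Cyp2r1. In that comparison 2 lay higher (background 3.19%), Cyp2d26 and Cyp4f18, and 2 members, Cyp26a1 and Cyp2c54, had an adjusted p under 0.05 as lower (background 0.057%).

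Some P450 genes varied widely among the libraries of 1 genotype. The median SD within a genotype was 0.60 on the log2 scale over members and 0.30 over all genes. Cyp3a44 had the highest, 1.71, and Cyp3a41a came next with 1.53; both are expressed mainly in female and young livers. Cyp3a44 stood at 9.77 and 9.37 in control replicates 1 and 2 and at 6.40 and 6.90 in replicates 3 and 4. In Trsp knockout livers replicates 1 and 2 were the low ones, at 4.77 and 4.20 against 8.77 and 9.08. Cyp3a41a, 95.8% identical to Cyp3a44 in coding sequence, had 5.61, 5.25, 2.55 and 2.39 in control and 3.60, 2.41, 6.52 and 6.17 in Trsp knockout livers.

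Cyp2b9 and Cyp2b13, steroid hydroxylases that are mainly female in adult mouse liver, stood clearly above the lowest value in 3 of 16 libraries. Cyp2b9 stood at 11.65 and 11.70 in control replicates 1 and 2 and at 10.54 in compound mutant replicate 1, and between 2.0 and 2.41 in the other 13 libraries. Cyp2b13 stood at 9.17, 9.23 and 6.17 in the same libraries and at 2.0 elsewhere. Of these 3 libraries, compound mutant replicate 1 was also the one with Xist reads, while both control libraries had male values for the Y-linked genes and Xist. Neither gene passed the filter, so they entered no test. Without these 3 libraries, 2 members were called in compound mutant against Trsp knockout livers (Cyp2a5 and Cyp7b1), beside 0.253% of all genes, and 15 members were lower without overlap, beside 5.17% of all genes. In this setting 0 members had an adjusted p under 0.05 in Keap1 mutant against control livers.

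**Figure D5:**
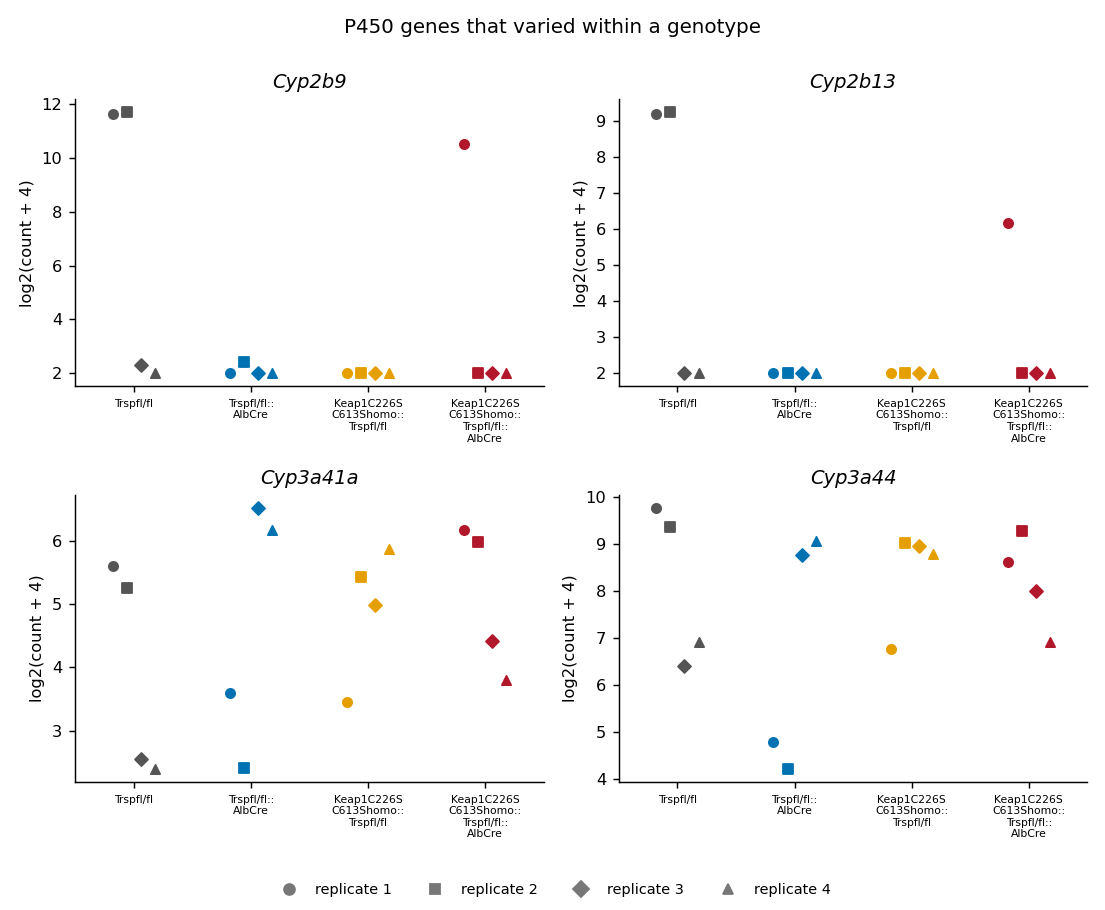
Values of Cyp2b9, Cyp2b13, Cyp3a41a and Cyp3a44 in every library, on the vertical axis as log2(normalised count + 4), by genotype on the horizontal axis, with a symbol for each replicate. Cyp2b9 is above 10 in control replicates 1 and 2 and compound mutant replicate 1, and at most 2.41 in the other 13 libraries.

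The genes of known P450 regulators were examined as a list. Of 26 listed regulators, among them the receptors AHR, CAR, PXR and PPAR alpha and the hepatocyte nuclear factors, 25 were tested and 0 were called in any comparison. At an adjusted p under 0.05 the list held 1 change, Ahr, with -0.59 in compound mutant against Keap1 mutant livers (limma adjusted p = 0.049). Of all genes 0.418% were lower at that level in this comparison. In compound mutant against Trsp knockout livers the list had 20 genes below 0 and 5 above, with a median of -0.25. Nr1i3, the gene of CAR, had -1.17 there (limma adjusted p = 0.17), Nr1i2, the gene of PXR, had -0.30 (limma adjusted p = 0.48), and Rara, a retinoic acid receptor, had 0.32 (limma adjusted p = 0.12). Bcl6, another gene of the list above 0, had 1.34 in the same comparison (limma adjusted p = 0.1). Of 16 genes for electron transfer to P450 enzymes and for haem synthesis, 0 were called in compound mutant against Trsp knockout livers. Cyb5a (-0.92, limma adjusted p = 0.013) and Pgrmc1 (-0.84, limma adjusted p = 0.014) were lower at an adjusted p under 0.05, beside 1.29% of all genes. Cyb5a encodes a cytochrome that passes electrons to P450 enzymes, and Pgrmc1 a membrane protein that binds them.

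Markers of the liver zone in which many P450 genes are expressed had lower values in the same libraries. The summed level of 10 pericentral hepatocyte genes that are not P450 genes was 21680 to 32700 normalised counts in compound mutant livers, 43150 to 55850 in Trsp knockout, 34830 to 64110 in Keap1 mutant and 39900 to 66250 in control livers. In compound mutant against Trsp knockout livers 8 of the 10 were below 0 and 2 above, with a median of -0.65. At an adjusted p under 0.05, 3 of the 10 were lower, beside 1.29% of all genes. Among these 3 were Oat, an ornithine aminotransferase, with -1.27 (limma adjusted p = 0.034), and Rgn, a calcium-binding protein, with -1.05 (limma adjusted p = 0.036). The 10 periportal genes had a median of -0.32, also with 8 below 0. The 8 general hepatocyte genes had a median of -0.10, with 4 below 0. The 5 erythroid genes summed to 10040 to 63880 in compound mutant and 9920 to 22510 in Trsp knockout livers, and the 4 B cell genes to 76.5 to 213 and 35.4 to 72.9. In Keap1 mutant and control livers the erythroid sums were 8667 to 16990 and 21280 to 42300. The B cell sums there were 116.7 to 228.2 and 40.31 to 88.5, and neither list overlapped between these genotypes. Kupffer cell, endothelial and cholangiocyte sums overlapped between all 4 genotypes. The part of cell makeup and of zonation in the P450 differences was not tested.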

How the data were processed

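The 16 liver RNA samples were depleted of rRNA and sequenced on a DNBSEQ instrument from directional libraries, and the authors estimated reads per transcript with Salmon against GENCODE mouse transcripts before processing on the iDEP platform. The genome build is not given in the sources used here. The authors deposited log2 values, which were tested to be log2 of reads divided by a size factor, plus 4: reversing this gave whole reads (tolerance 0.1 read) for 100% of low values. Rows without a gene identifier (369, at most 0.627% of reads of a library) stayed out. All per-sample columns were used.

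Genes reaching a normalised count of 10 in 4 or more libraries were tested with limma 3.58.1 (R 4.3.3; lmFit and eBayes with trend) in 1 fit of a mean per genotype over 16 libraries, and p-values were Benjamini-Hochberg adjusted over 15781 genes. A call needed a log2 difference beyond 1 in size together with an adjusted p below 0.01. The fit was tested on simulated data in which genes were drawn independently and only the Trsp knockout group was changed. Those data held no subgroups within a genotype and no library unlike its group, so the test does not cover such features. Members, gene lists and tests were chosen with earlier results of these data known. Named genes are the called members, the 3 smallest p-values of each test and a list of well-known P450 genes; Cyp26b1, Cyp2c38, Cyp2c40, Cyp2d9 and the other members named were added after their values were seen. No extraction or sequencing batch is given. Alternatives were log2 constants of 1 and 0.5, other filters, quantile and library-total scaling, limma voom on recovered reads, eBayes without trend, the compared groups alone, a block for the replicate number, omission of each library, and an adjusted p under 0.05. Leaving out the 3 libraries with Cyp2b9 reads was added after seeing the data. Transcript lengths, positions and coding identity (longest open reading frame, global alignment) came from GENCODE annotation of GRCm38, matched by gene identifier. Figures were drawn with matplotlib 3.10.9.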

Additional observations from a re-analysis of the deposited data

Results flagged for a closer look

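Among 26 named P450 genes in 4 genotypes, 104 groups of 4 libraries were examined for a library far from the other 3, and 4 were found, where chance gives about 1 in 20. Cyp2a4 stood at 10.10 in control replicate 3, against 9.68 to 9.73 in the other control livers. Cyp2c39 stood at 5.26 in compound mutant replicate 2, against 4.84 to 4.87 in the others of that genotype. Cyp3a44 stood at 6.76 in Keap1 mutant replicate 1, against 8.79 to 9.03 in the others. Cyp4a10 stood at 13.10 in Trsp knockout replicate 1, against 11.64 to 11.88 in the others. None of these libraries was compound mutant replicate 1.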

How the results depend on the processing

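The count of 5 P450 genes called lower in compound mutant against Trsp knockout livers was 2 when only the compared groups were fitted (Cyp2a5 and Cyp7b1), 2 without the 3 libraries with Cyp2b9 reads, and 10 at an adjusted p under 0.05 with or without the fold limit. With 1 library left out it ranged from 2 to 9. It was 2 without compound mutant replicate 3 (Cyp2c39 and Cyp7b1) and 3 without Trsp knockout replicate 4. Without compound mutant replicate 1 it was 4, and without compound mutant replicate 4 it was 9. It was 4 with limma voom, with a constant of 0.5 and with a count of 10 required in all 16 libraries, and each time Cyp26a1 was not called. Of all genes, 0.456% were called lower in the main fit, 0.304% without compound mutant replicate 1 and 0.253% without the 3 libraries. At an adjusted p under 0.05 with any fold change the share was 1.29%. For the other alternatives the share of all genes is not given here. Cyp7b1 was called under every alternative listed. The count of 0 in compound mutant against Keap1 mutant livers was 1 when only those groups were fitted (Cyp26b1), and 0 to 1 with 1 library left out, the 1 being Cyp2c55 without compound mutant replicate 4. The count of 0 lower in Keap1 mutant against control livers was 2 at an adjusted p under 0.05, with or without the fold limit. The other counts kept 0 under each alternative. The causes were not tested.

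Scaling by library totals moved the median of all genes to 0.13 in compound mutant against Trsp knockout livers, where the members' median was -0.56. With quantile scaling it was -0.63. Replicate numbers did not pair the libraries: same-numbered libraries of different genotypes had correlations of -0.32 to 0.31 (median -0.04, 24 pairs). Libraries with different numbers had -0.335 to 0.327 (median 0.0092, 72 pairs). Whether libraries form subgroups that the labels do not name was not tested. With the replicate number as a block 4 P450 genes were called lower in compound mutant against Trsp knockout livers. No value of a named gene reversed its direction where either fit had an unadjusted p under 0.05. The interaction could not be fitted on the compared groups alone, since it needs all 4 genotypes. Depth limits genes with few reads, among them Cyp26a1, Cyp1a1 (1 to 37 reads a library), Cyp2b10 (0 to 23), Cyp3a41a (1 to 82) and Cyp4f18 (4 to 23).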
